A study of Citrus sinensis with 2 samples.

Results

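The 4 miRNA names miR160, miR167, miR390 and miR393, which regulate auxin signalling in plants, were followed in leaves of Citrus sinensis seedlings grown without or with magnesium (Mg). They were chosen by name from the 1215 known miRNAs of the deposited count table, and all 4 had counts in both libraries and passed the filter of at least 10 reads per 1000000 clean reads (RPM) in at least 1 library, as did 324 names in all. The seedlings belonged to the cultivar Xuegan and received nutrient solution with 0 mM MgSO4 (Mg-deficient) or 1 mM MgSO4 (Mg-sufficient, control) for 16 weeks, and sulfur was kept at the same level with Na2SO4. Each treatment had 1 small RNA library, made from fully expanded leaves of 5 plants that were mixed before RNA extraction, so no difference between the libraries could be set against a spread between replicates. The extraction protocol in the labels speaks of frozen roots, whereas the tissue, the sample names and the paper give leaves, and miRNA counts hold no leaf marker that could check this.

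Auxin is perceived by F-box receptors of the TIR1/AFB family, which release auxin response factors (ARFs) from their Aux/IAA repressors. In Arabidopsis, miR393 cleaves the transcripts of the receptors TIR1, AFB2 and AFB3, miR160 those of ARF10, ARF16 and ARF17, which mostly repress transcription, and miR167 those of the activators ARF6 and ARF8. MiR390 acts through AGO7 on the non-coding TAS3 transcript, from which small RNAs against ARF2, ARF3 and ARF4 are made. These miRNAs are known for roles in leaf and root development and in the adjustment of growth to stress.

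The sequences that the study lists for the 4 names are shown here because a count under a family name can come from either strand of the miRNA duplex. They are written 5′ to 3′ with the seed, bases 2 to 8, in capitals.
miR160: gCGUACGAggagccaagcaua
miR167: uGAAGCUGccagcaugaucuga
miR390: aAGCUCAGgagggauagcgcc
miR393: uCAUGCGAucccuucggaauu
MiR167 is listed with 22 nt and the others with 21 nt. The listed sequences start with U for miR167 and miR393, with A for miR390 and with G for miR160. Of the 690 known miRNAs with a listed sequence, 49.7% start with U, 30.1% with A and 9.86% with G. The miR390 sequence has the 5′ A that Arabidopsis AGO7 prefers. The 4 sequences have 4 different seeds, and 0 of the other listed names shared a seed with any of them. Likewise, 0 listed names shared a stretch of 17 nt or more with one of the 4 sequences when up to 2 mismatches were allowed, so no listed name was found that could share their reads within the mismatches allowed by the study. The other 525 names have no listed sequence here and could not be compared.

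For 3 of the 4 names, a sequence that stood apart by its pairing with the listed one was found among the 113 miRNAs that the study predicted from the genome. This search was chosen after the sequences were seen, allowed 3′ overhangs of 2 or 3 nt as in the duplex cut by Dicer-like enzymes, and counted G-U pairs.
novel_mir_271: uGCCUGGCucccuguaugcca
novel_mir_48: uCCAAAGGgaucgcauugauc
novel_mir_61: cGCUAUCCauccugaguuuca
The sequence novel_mir_271 formed 17 pairs over 19 positions with the sequence listed for miR160, as did novel_mir_297, whereas the next sequence of the 444 that could be placed in this way formed 12 pairs over 18 positions. With the sequence listed for miR393, novel_mir_48 and its shorter form novel_mir_218 formed 16 pairs over 18 positions, against 13 over 18 for the next sequence. With that of miR390, novel_mir_61 formed 18 pairs over 19 positions, against 13 for the next. For miR167 no sequence stood apart in this search, and the best of 488, the listed miR1216, formed 15 pairs over 19 positions. The predicted novel_mir_117 came next with 14 pairs over 19 positions, of which 11 were not G-U pairs, against 10 for miR1216. The search allowed no gaps, so a partner with a bulge in the duplex could be missed. As background, novel_mir_271 and novel_mir_48 have the sequences known in Arabidopsis and many other plants for the strands of miR160 and miR393 that guide cleavage of ARF and TIR1/AFB transcripts, while miR167 and miR390 are listed here with their guide strands. The sequences listed for miR160 and miR393 pair with these guide strands and are not the guide strands themselves. Whether the counts of these names came from 1 strand or from both was not tested, so their values below are those of the names and not of the guide strands, and the counts of the predicted miRNAs were not used here.

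All 4 names have annotated genes in sweet orange. In RefSeq's annotation of the assembly DVS_A1.0, from which names alone were taken, there are 3 genes named MIR160, 5 named MIR167, 1 named MIR390 and 3 named MIR393 among its 129 miRNA genes. MIR167D and MIR167E are direct neighbours on 1 chromosome, with 0 annotated genes between them. The deposited counts are summed over such genes under 1 name, so the values below cannot be given per gene.

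The Mg-sufficient library had 22218850 clean reads and the Mg-deficient library 20328011. Known miRNAs made up 22.9% of the clean reads in the former and 14.8% in the latter. The paper's summary of the reads prints both the clean-read totals and the larger miRNA share under the opposite treatment, whereas the deposited tables, followed here, tie them to the libraries as given above. That summary also gives the library of 20328011 clean reads a larger share of rRNA reads and a smaller share mapped to the genome. These differences in the make-up of the libraries stand beside every RPM value below, and their part in the log2 ratios was not tested. The 95% intervals given here cover counting error only, which can be larger than they show since copies made by PCR are not independent molecules. Fewer cells with a miRNA and fewer copies per cell cannot be told apart in such mixed leaf samples.

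The name miR160, of the family that regulates repressing ARFs, was the only one of the 4 that was more abundant in the Mg-deficient library when scaled to clean reads. The control library held 5880 counts of it and the Mg-deficient library 9478. The normalized read-counts were 265 RPM (95% Wilson interval, 258 to 271) for control leaves and 466 RPM (457 to 476) for Mg-deficient leaves, and these intervals did not overlap. MiR160 was 1.76-fold higher under Mg-deficiency, a log2 ratio of 0.82 (exact Clopper-Pearson 95% interval, 0.77 to 0.86). Its place by abundance among the known miRNAs went from rank 41 to rank 33.

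MiR167, the regulator of activating ARFs, was by far the most abundant of the 4 and ranked 2 among all known miRNAs in both libraries. In control leaves 780656 of its reads were counted, which is 35135 RPM (35058 to 35211). In Mg-deficient leaves there were 384075, which is 18894 RPM (18835 to 18953). It was 1.86-fold lower in the latter, and its log2 ratio was -0.89 (-0.90 to -0.89). Of all known miRNA counts, miR167 held 15.3% in the Mg-sufficient and 12.8% in the Mg-deficient library, so its share of the miRNA pool was smaller as well. MiR167 made up 98.7% and 97.0% of the counts of the 4 names together, and a sum over the 4 therefore describes miR167 almost alone.

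MiR390, which triggers the small RNAs of TAS3, was counted 2734 times in control leaves and 1453 times in Mg-deficient leaves. These are 123 RPM (119 to 128) and 71.5 RPM (67.9 to 75.2). MiR390 was 1.72-fold lower in Mg-deficient leaves, and its log2 ratio was -0.78 (-0.88 to -0.69). Its rank went from 62 to 89. Of all reads counted as known miRNAs it held 0.0536% (0.0517 to 0.0557%) in control and 0.0484% (0.0460 to 0.0509%) in Mg-deficient leaves, intervals that did not overlap.

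The name miR393, of the family that regulates the auxin receptors, had the fewest counts of the 4, with 1429 counts from control leaves and 847 counts from Mg-deficient leaves. The normalized read-counts were 64.3 RPM (61.1 to 67.7) and 41.7 RPM (39.0 to 44.6). Relative to all clean reads it was 1.54-fold lower under Mg-deficiency, a log2 ratio of -0.63 (-0.75 to -0.50). Its share of all reads counted as known miRNAs was 0.0280% (0.0266 to 0.0295%) in control and 0.0282% (0.0264 to 0.0302%) in Mg-deficient leaves. These shares differed by less than the counting error, although miR393 was lower than the median of all names that passed the filter.

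**Figure D1:**
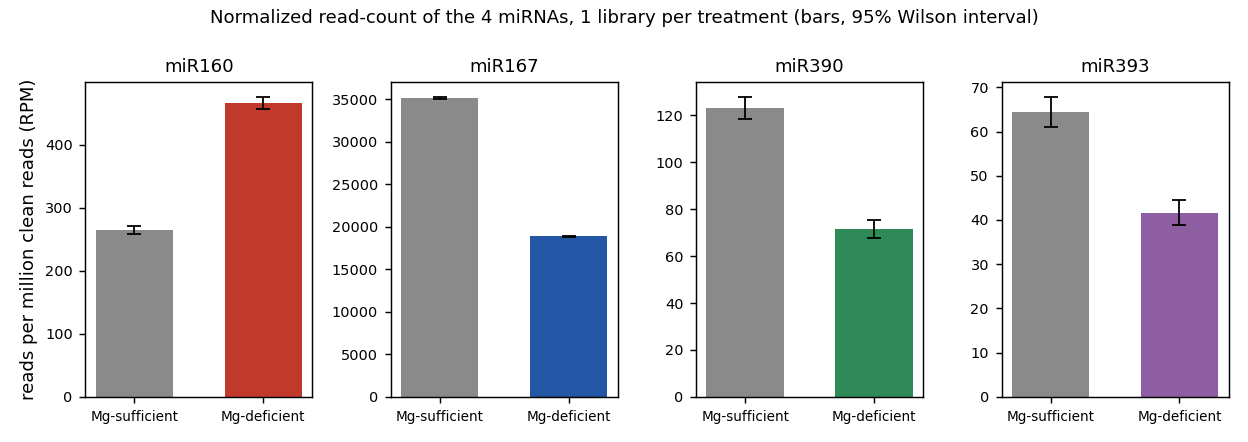
Normalized read-count in RPM (y axis, a scale of its own for each miRNA, from 0) in the Mg-sufficient (grey) and Mg-deficient (coloured) library, with 95% Wilson intervals for counting error as whiskers. MiR160 goes from 265 to 466 RPM, while miR167, miR390 and miR393 are lower in the Mg-deficient library.

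The order of the levels was the same in both libraries, miR167 before miR160, miR390 and miR393, and the intervals of neighbours in this order did not overlap in either library. The spacing differed. MiR167 had 133 times the counts of miR160 in the Mg-sufficient library and 40.5 times in the Mg-deficient library. MiR160 had 2.15 times the counts of miR390 in the former and 6.52 times in the latter. Against miR393 it had 4.11 and 11.2 times the counts. Between the less abundant names, miR390 had 1.91 times the counts of miR393 in the Mg-sufficient and 1.72 times in the Mg-deficient library. Of the counts of miR160, miR390 and miR393 together, miR160 held 58.5% in the Mg-sufficient and 80.5% in the Mg-deficient library. The listed sequences differ in length by 1 nt at most, so these ratios need no correction for length, but miRNAs of different sequence are ligated with different efficiency and a ratio between names is not a ratio of molecules.

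The ratio of one miRNA to another within a library does not depend on the library size. Set against each other in this way, miR160 stood apart from the other 3. Its log2 ratio exceeded that of miR167 by 1.71 (exact conditional 95% interval, 1.66 to 1.76), a 3.28-fold shift of the ratio of miR160 to miR167 between the libraries. It exceeded that of miR390 by 1.60 (1.497 to 1.705) and that of miR393 by 1.44 (1.31 to 1.58). The 3 names that were lower lay close together. The log2 ratio of miR167 minus that of miR390 was -0.11 (-0.20 to -0.018), that of miR167 minus miR393 was -0.27 (-0.39 to -0.14) and that of miR390 minus miR393 was -0.16 (-0.31 to -0.0020). All 6 intervals lay on 1 side of 0, the last by little, and they hold counting error alone.

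**Figure D2:**
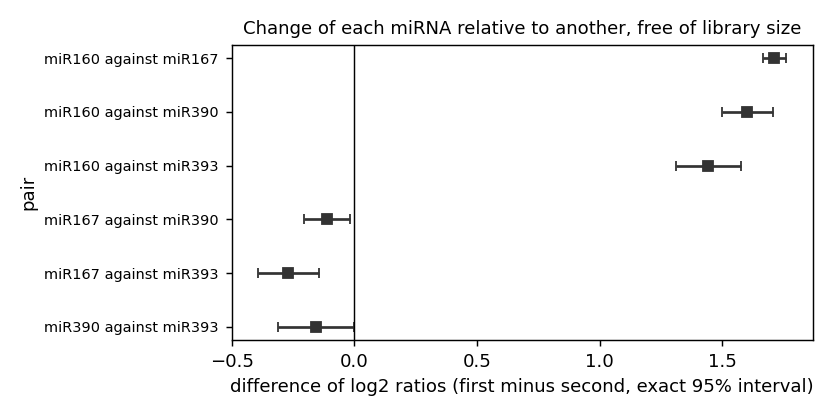
Difference of the log2 ratios of 2 miRNAs (x axis, first minus second) for the 6 pairs (y axis), with exact 95% intervals. The 3 pairs with miR160 lie between 1.44 and 1.71, and the 3 pairs among miR167, miR390 and miR393 lie between -0.27 and -0.11.

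The size of each log2 ratio, and for miR393 also its sign, depended on the library size used for scaling. With the clean-read totals exchanged between the libraries and the counts left in place, the log2 ratios were 0.56 for miR160, -1.15 for miR167, -1.04 for miR390 and -0.88 for miR393. The paper's summary exchanges the miRNA share along with the totals, so neither source prints this setting. An exchange of the treatment labels themselves would reverse each direction. The normalized read-counts in the paper's supplement divide control counts by the larger clean-read total, as was done here. The paper also reports that its quantitative PCR (qRT-PCR) matched the sequencing pattern for most of the known miRNAs it assayed. The 4 names were not among those assayed. When the libraries were scaled to their known miRNA counts, they were 1.45, -0.26, -0.15 and 0.01 in the same order. Leaving the 4 names out of that total gave 1.41, -0.30, -0.19 and -0.03. EdgeR's TMM normalization gave 1.16, -0.56, -0.45 and -0.29, and DESeq2's size factors gave 1.18, -0.53, -0.42 and -0.26. MiR160 was higher and miR167 and miR390 were lower under each of these 6 library sizes, whereas miR393 was lower beyond counting error under 4 of them and did not differ beyond it with the known miRNA total, with or without the 4 names. Of all names that passed the filter, 41% were above 0 with the clean-read totals and 34.9% with these exchanged. With the known miRNA total 67.2% were above 0, and 65% with that total without the 4 names. TMM gave 53.7% and DESeq2's size factors 55.2%.

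**Figure D3:**
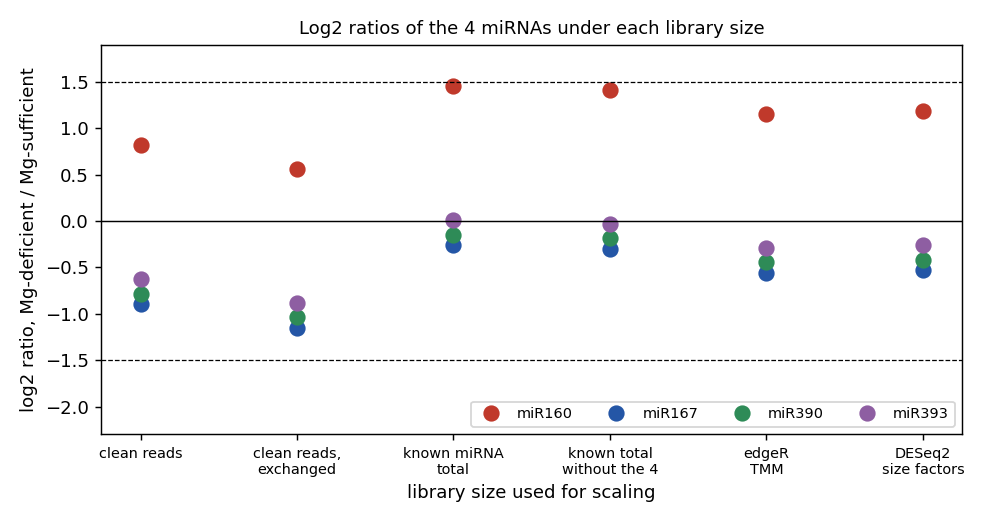
Log2 ratio, Mg-deficient over control (y axis), for the 4 miRNAs (colours) under 6 library sizes (x axis), with dashed lines at 1.5 in either direction. MiR160 lies between 0.56 and 1.45, and the other 3 names shift together, with miR393 at 0.01 when the known miRNA total is used.

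The rule of the study asks for a tail of the Audic-Claverie formula below 0.01 together with a log2 ratio beyond 1.5. It called 0 of the 4 names, beside 53.7% of the 324 names that passed the filter (28.1% higher, 25.6% lower). Of the 149 names with at least 10 RPM in both libraries, a level that all 4 reached, 12.8% were called. Of the names that passed, 287 have a sequence in the study's list, and 47.7% of these were called, whereas all 37 without a listed sequence were called. The formula gives the chance of the reads of 1 library given those of the other and compares these libraries, not the treatments. It was passed by all 4, as by 91% of the names that passed the filter (37% higher, 54% lower). The one-sided exact p was 2.25e-263 for miR160, 7.09e-66 for miR390, 1.56e-24 for miR393 and below 1e-300 for miR167. The methods of the study define the fold change as a log2 ratio, so a linear reading of the threshold is not its rule. A linear ratio of 1.5 was tried here only as a looser alternative. All 4 were then called, miR160 higher and the other 3 lower, beside 73.8% of all names that passed (34% higher, 39.8% lower). These calls rested on both the threshold and the library size. With the linear ratio, only miR160 was called with the known miRNA total, with that total without the 4 names, with edgeR's TMM normalization and with DESeq2's size factors, and only the other 3 were called with the exchanged totals. Of all names that passed, 46.6%, 45.7%, 38.6% and 38.9% were called higher in the settings that called miR160, in that order. With the exchanged totals, 50.3% were called lower. These combinations of threshold and library size were chosen after the data were seen. When the biological coefficient of variation was assumed to be 0.2, edgeR's exact test, two-sided and unadjusted, gave p = 0.0482 for miR160, 0.0304 for miR167, 0.0593 for miR390 and 0.134 for miR393. With an assumed value of 0.4, this exact p lay between 0.286 and 0.456. The edgeR test was run with the clean-read totals alone, so these p-values hold for that library size only.

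Set against the 324 names that passed the filter, all 4 lay between the quartiles of the log2 ratio, which were at -1.58 and 3.02 around a median of -0.30. A higher log2 ratio than that of miR160 was found for 103 other names, and a lower one than those of miR167, miR390 and miR393 for 104, 114 and 123 other names. Many of the names with large ratios had few counts in 1 library. Among the 72 names with at least 50 RPM in both libraries, where only miR393 of the 4 is missing, the quartiles were -0.85 and 0.10 and 19.4% were called. In this group, 21 names were above 0, 12 of them above miR160, and 16 other names were below miR167. MiR160 thus lay above the upper quartile of the abundant names and miR167 just below the lower one, while miR390 lay between the lower quartile and the median of -0.34.

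**Figure D4:**
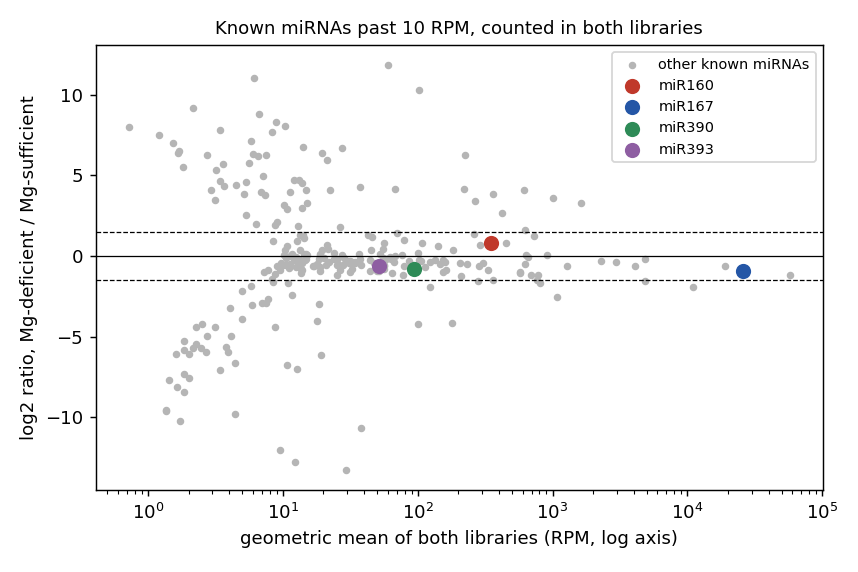
Log2 ratio, Mg-deficient over control (y axis), against the geometric mean of both libraries in RPM (x axis, log scale) for the 269 names that passed the filter with counts in both libraries, with dashed lines at 1.5. The other 55 names that passed have no count in 1 library and are not drawn. The 4 coloured miRNAs lie within the dashed lines.

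For comparison, 19 further miRNA families that are conserved among plants were taken, of which 16 passed the filter. Their median log2 ratio was -0.56, and 12 were lower and 4 higher in the Mg-deficient library. The rule called 4 of them, miR156 and miR164 lower and miR395 and miR398 higher. Only miR395 and miR398, regulators of sulfate assimilation and of copper proteins, had a higher log2 ratio than miR160, which was followed by the laccase regulator miR397 at 0.78. The interval of miR397 reaches 0.87 and overlaps that of miR160. MiR167, miR390 and miR393 lay within the range of the families that were lower, with 5, 7 and 8 of the 16 families below them. MiR166, which acts on HD-ZIP transcription factors, had a log2 ratio of -0.63, the same as miR393 at this rounding.

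**Figure D5:**
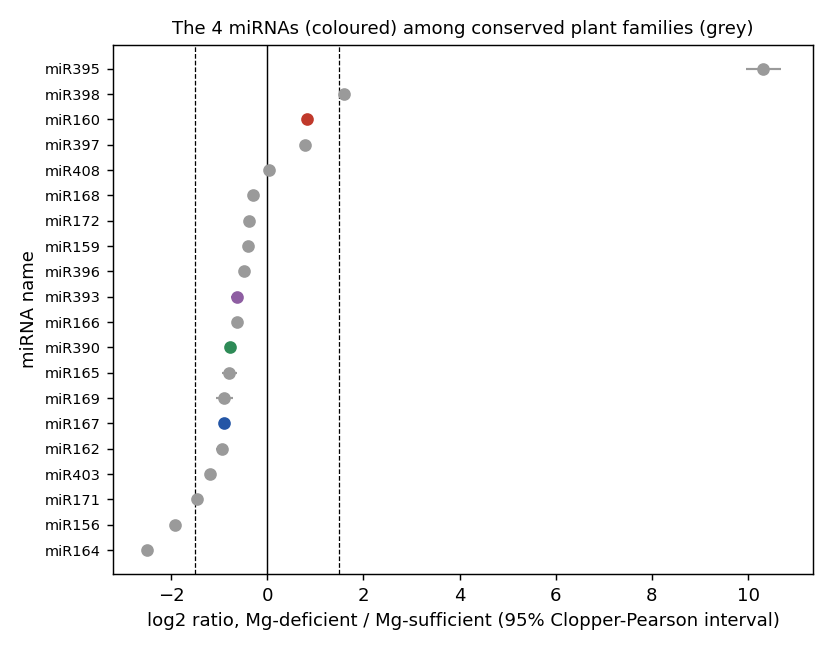
Log2 ratio with exact 95% interval (x axis) of the 4 miRNAs (coloured) and of the 16 conserved families that passed the filter (grey), sorted by value (y axis), with dashed lines at 1.5. MiR160 is below miR395 and miR398 only, and miR167, miR390 and miR393 lie among the families with negative values.

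Other names with a link to auxin or to the machinery of the 4 were mostly rare. MiR164, which in Arabidopsis acts on NAC1, a transcription factor of auxin-dependent lateral root growth, was called, and at -2.51 its log2 ratio was lower than those of the 3 lower names above. MiR847, which in Arabidopsis acts on the Aux/IAA repressor IAA28, had 9 counts in control and 94 counts in Mg-deficient leaves. At 4.62 RPM in the latter it did not pass the filter. MiR173, which triggers TAS1 and TAS2 small RNAs in Arabidopsis, had 70 and 16 counts, and miR828, the trigger of TAS4, had 6 and 3 counts in control and Mg-deficient leaves, respectively. MiR394, which acts on another F-box transcript, had 19 and 11 counts. None of miR847, miR173, miR828 and miR394 reached 10 RPM in a library, so miR390 was the only one of the 3 TAS triggers above that limit.

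The names most like each of the 4 were found by the distance in log2 RPM over both libraries among 252 other names past the filter that had over 3 counts in each. Over only 2 libraries, such a likeness means a similar level in both. Nearest to miR160 were miR6464, miR3627 and miR7532, at distances of 0.39, 0.51 and 0.72. MiR3627 had 337 RPM in control and 602 RPM in Mg-deficient leaves, with a log2 ratio of 0.84, close to that of miR160. Nearest to miR167 was miR166 at 0.65, followed by miR157 and miR156 at 1.65 and 1.88. For miR390 the nearest were miR5534, miR6019 and miR3699, at distances from 0.16 to 0.38, and for miR393 they were miR5139, miR4406 and miR2089, at distances from 0.16 to 0.20.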

How the data were processed

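Each library was 1 mixed sample of leaves from 5 plants. The authors mapped clean reads to the C. sinensis genome with SOAP, removed other RNA classes, aligned the rest with miRBase plant miRNAs, allowing 2 mismatches, and deposited a raw count per known miRNA and library. The authors also deposited values in RPM, reads per 1000000 clean reads (TPM in the paper), and a table of 728 names with their log2 ratios and p-values, which were not used. RPM was computed here from the counts and the deposited clean-read totals, and differed from the deposited values by at most 5e-05. How the authors counted reads matching several names is not given in the sources used here.

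The tests, filter and thresholds follow the study's methods but were applied to all 1215 names of the deposited count table, of which 690 have a sequence in the list of the study. The members and lists were chosen with earlier results of these data known. The names given are the 4 members, names sharing sequence with them, the 3 nearest names of each, 5 names linked to auxin, TAS loci or F-box proteins, and conserved families by counts and examples. MiR157 comes in as such a nearest name. Alternatives changed the library size, counts added, filter, threshold, test and shared reads. The RefSeq hairpins planned for the assignment of strands were not used here, and the predicted miRNAs of the study took their place. The code for calls and intervals was run on simulated counts that held counting error alone and planted changes larger than those of the 4 names. That run does not bear on the spread between plants or libraries. Python 3.11.15 (numpy 2.4.6, scipy 1.17.1, pandas 2.3.3, matplotlib 3.10.9) and R 4.3.3 (edgeR 4.0.16, DESeq2 1.42.0) were used.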

Additional observations from a re-analysis of the deposited data

How the results depend on the processing

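The linear ratio combined with another library size, chosen after the data were seen, called 0 higher and 3 lower with the exchanged totals, and 1 higher and 0 lower with each of the 4 others. Of all names that passed, 30.4% were called higher and 50.3% lower with the exchanged totals. With the 4 others, 38.6 to 46.6% were called higher and 23.3 to 28.7% lower. With the threshold as a linear ratio of 1.5, the number of the 4 names called moved from 0 to 1 higher (miR160, log2 ratio 0.82) and 3 lower (miR167, -0.89, miR390, -0.78, and miR393, -0.63). Of all names that passed, 34% were then called higher and 39.8% lower. When the libraries were scaled to their known miRNA counts, the log2 ratio of miR393 turned to 0.0086. No other alternative tried changed a direction or a call of the 4 names, but several of them could not. The 3 other filters, Fisher's exact test, the assumed variation and Benjamini-Hochberg adjustment leave the log2 ratios as they are. All 4 ratios lay within 1 in either direction, so a threshold at a log2 ratio of 1 could call none. Adding 1 count hardly moves such counts, and sums over near-identical names joined 0 names to the 4. With the exchanged totals and a log2 ratio of 1.5 the 4 names stayed uncalled, although miR167 reached -1.15 and miR390 -1.04. The differences between members kept their direction with 1 count added and with summed names. Neither setting could test them, since 0 names were joined to the 4 and 1 count is small beside counts of 847 or more. The median log2 ratio of all names that passed moved from -0.30 to -0.61 with the exchanged totals, -0.48 without a filter and -0.14 with 50 RPM in at least 1 library. It turned to 0.45 with the known miRNA total, 0.41 with that total without the 4 names, 0.13 with edgeR's TMM normalization and 0.17 with DESeq2's size factors. No paired analysis was possible because each treatment has 1 library. The lowest count of a member, 847, leaves an interval of 39.0 to 44.6 RPM. The spread between plants is unknown, and the choice of library size moved miR393 from -0.88 to 0.0086 and miR167 from -1.15 to -0.26.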
